A study of Homo sapiens with 33 samples.

Results

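The 10 genes described here code for FGF ligands, an FGF receptor and feedback genes of the ERK pathway, and were chosen by name: FGF2, FGF4, FGF8, FGF17, FGF19, FGFR1, DUSP6, SPRY1, SPRY2 and SPRY4. They are 10 of 35805 genes in the RNA-seq table, and all 10 passed the minimum mean level of 0.1 RPM (reads scaled to the total on genes of each library) that 20608 genes passed. The same names were looked up in the ChIP-seq table, where every one of the 10 had at least 1 window around a start site.

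FGF ligands are secreted proteins that bind FGF receptors, which are tyrosine kinases at the cell surface, together with heparan sulfate. The activated receptor signals through RAS, RAF and MEK to the kinase ERK, and ERK in turn raises transcription of its own inhibitors, among them the phosphatase DUSP6 and the Sprouty proteins. In human ESCs, FGF2 in the medium helps to maintain the undifferentiated state, while FGF4, FGF8 and FGF17 are known for their expression around gastrulation.

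RNA-seq and ChIP-seq were made from H9 cells, an established human ESC line, in which EZH2, the histone methyltransferase of PRC2 that sets H3K27me3, had been disrupted by CRISPR/Cas9. The groups were EZH2+/+ ESCs (WT), EZH2-/+ ESCs (Het), EZH2-/- ESCs (Null) and EZH2-/- ESCs in which a DOX-inducible EZH2 transgene was switched on (EZH2-/- +EZH2, Null+EZH2), with 3 RNA-seq libraries per group. Cells for RNA-seq and, by the study's methods, for ChIP-seq were sorted for the ESC surface marker SSEA4. All lines grew on mouse feeder cells in medium that contained FGF2 at 4 ng/ml. The EZH2-/- line was derived from an EZH2-/+ line that carried the transgene, so that relative to WT ESCs the EZH2 genotype and the history of a clone cannot be told apart. By the study's account EZH2-/- +EZH2 ESCs are EZH2-/- ESCs given DOX, so that between these groups EZH2 and DOX itself cannot be told apart. The study describes the libraries of a line as biological replicates. The labels number them 1 to 3 and name no cultures, so that p-values measure the spread between libraries of these lines and not between independent clones.

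EZH2 was measured at 68.6, 63.3 and 59.5 RPM in the 3 WT libraries, at 55.4, 52.3 and 45.7 RPM in Het, at 11.5, 8.65 and 9.68 RPM in Null and at 271, 385 and 256 RPM in Null+EZH2, in the order of the labels. About 16600000 to 36600000 reads per library lay on genes, and 3 reads corresponded to 0.0528 to 0.120 RPM. The ESC marker POU5F1 was at 617 RPM or more in all 12 libraries, and no gene of the list of 8 ESC markers was without reads in any group. Relative to WT, the median change over all genes was -0.13 on the log2 scale in Null and -0.15 in Null+EZH2 ESCs, and the changes of members below should be read against these shifts. Of the 4 comparisons, 3 share the WT libraries and 2 share the Null libraries, so that their values are given side by side and not as separate evidence.

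In Null relative to WT ESCs, 5 of the 10 genes rose (FGF2, FGF4, FGF8, SPRY2 and SPRY4), FGFR1 fell, and FGF17, FGF19, DUSP6 and SPRY1 did not pass the test (limma, adjusted p under 0.05 over all genes tested). Over all genes tested, 31.4% were called in this comparison, 12.6% as higher and 18.8% as lower. The median log2 fold change was 1.04 over the members and -0.13 over all genes tested. Called genes divided into 2593 higher and 3870 lower with RPM as deposited, and into 3378 higher and 2822 lower when libraries were rescaled by median-ratio size factors, while the 6 calls among the members had the same directions under both. In the fit with a block for the library number 6 members were called too, against 45.3% of all genes. In 7 of the 10 genes the Null libraries did not overlap the WT libraries, which was the case for 49.8% of all genes. In bulk RNA, fewer cells that express a gene and less RNA per cell cannot be told apart.

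**Figure D1:**
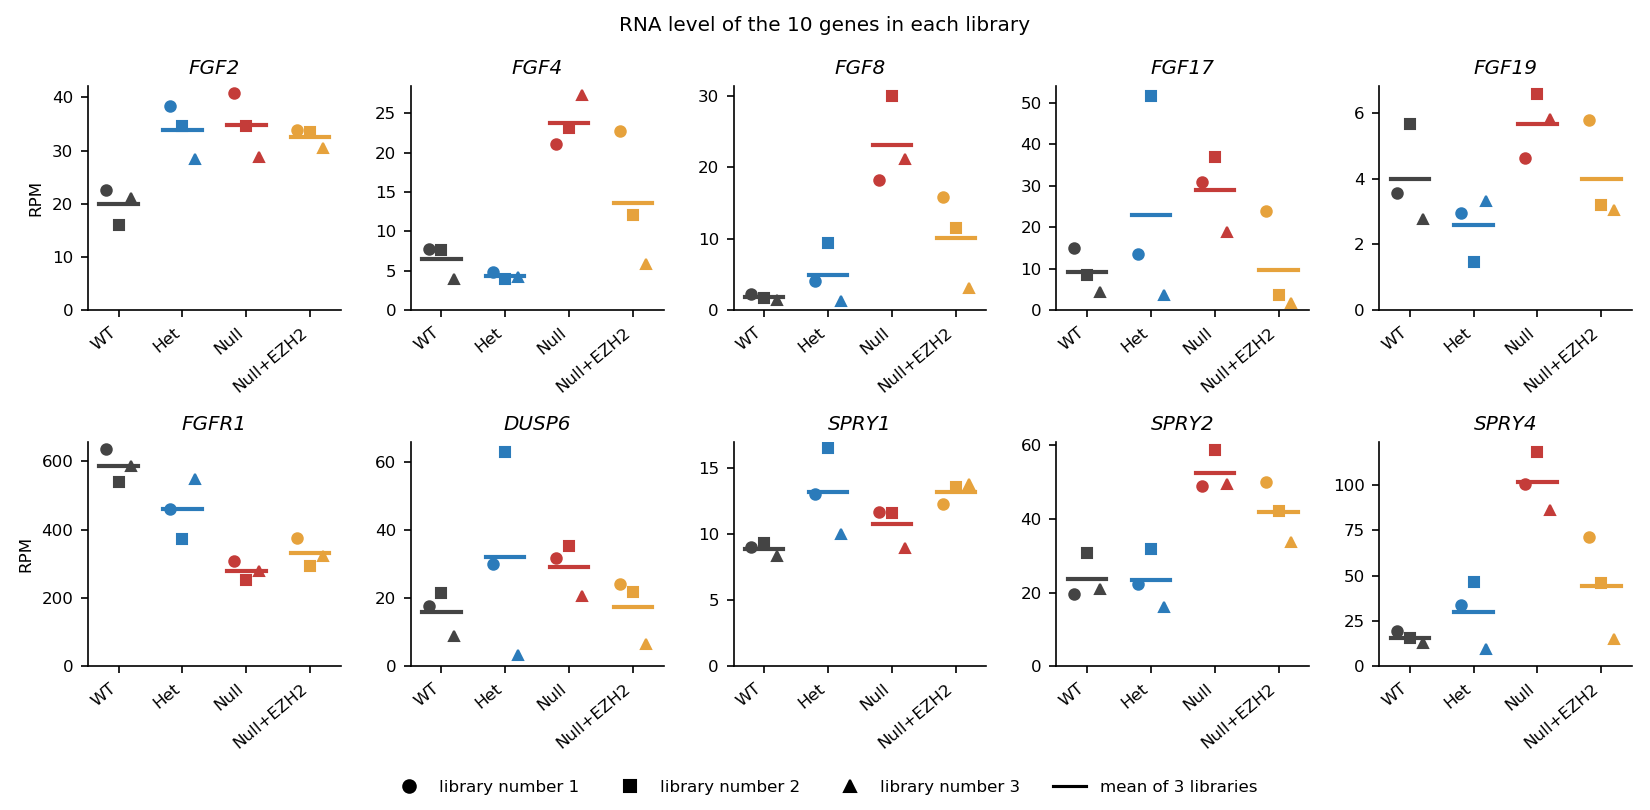
RNA level in RPM (y axis, linear, from 0, a scale of its own in each panel) of the 10 genes in the 4 genotypes (x axis), with 1 symbol per library shaped by its number in the labels and a line at the mean of 3 libraries. SPRY4 lies between 86.4 and 118 RPM in Null libraries and between 12.7 and 19.4 RPM in WT libraries, whereas the FGF17 libraries of these groups lie closer, and FGFR1 is lowest in Null.

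Among the ligands, FGF2, the basic FGF that is also supplied in the medium (chromosome 4, 122826708 to 122898236, GRCh38, plus strand), was at 22.6, 16.1 and 21.2 RPM in WT and at 40.9, 34.7 and 28.8 RPM in Null ESCs. It was also at 38.4, 34.6 and 28.5 RPM in Het and at 33.8, 33.5 and 30.5 RPM in Null+EZH2 ESCs. Each of the 9 libraries from lines with a disrupted allele was thus above all 3 WT libraries. FGF2 was 1.74-fold higher in Null than in WT ESCs (log2 fold change 0.80, standard error 0.18, limma adjusted p = 0.0049) and 1.65-fold higher in Null+EZH2 than in WT ESCs (log2 fold change 0.72, limma adjusted p = 0.022). The latter call was lost without library 1 or 2 of Null+EZH2 (limma adjusted p = 0.073 and 0.083) and without library 2 of WT (limma adjusted p = 0.10). In Het relative to WT ESCs the log2 fold change was 0.76 with a limma adjusted p of 0.063, and this passed the test with the library number as a block (limma adjusted p = 0.014). The 3' part of FGF2 overlaps NUDT6 on the other strand over 9540 bases, and since reads were counted without strand, part of the reads of either gene may belong to the other. NUDT6 itself was at means of 8.23 RPM in WT and 6.80 RPM in Null ESCs.

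FGF4, an autocrine ligand of ESCs (chromosome 11, 69771016 to 69775403, minus strand), was at 7.77, 7.66 and 4.00 RPM in WT and at 21.1, 23.1 and 27.3 RPM in Null ESCs. The 3 libraries of Het were at 4.80, 3.91 and 4.22 RPM, and those of Null+EZH2 at 22.8, 12.1 and 5.88 RPM. The Null libraries stood apart from those of both WT and Het, whereas the Null+EZH2 libraries ran from within the range of WT to within that of Null. FGF4 was 3.77-fold higher in Null than in WT ESCs (log2 fold change 1.92, standard error 0.39, limma adjusted p = 0.0032). Relative to Null+EZH2 ESCs the log2 fold change was 1.01 with a limma adjusted p of 0.20.

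FGF8, a ligand of the primitive streak and of brain organizers (chromosome 10, 101770130 to 101780369, minus strand), had the largest fold change among the members in Null relative to WT ESCs. It was at 2.26, 1.75 and 1.46 RPM in WT libraries and at 18.2, 29.9 and 21.2 RPM in Null libraries, a rise of 11.9-fold (log2 fold change 3.58, standard error 0.64, limma adjusted p = 0.0015). The Null+EZH2 libraries, at 15.8, 11.5 and 3.16 RPM, were all below the lowest Null library and above the highest WT library. The difference from Null (log2 fold change 1.43, limma adjusted p = 0.29) did not pass the test, and that from WT (log2 fold change 2.15, limma adjusted p = 0.052) passed it with the library number as a block (limma adjusted p = 0.0076). In Het ESCs FGF8 was at 4.02, 9.40 and 1.23 RPM, a spread that took in the WT range, and the log2 fold change of 0.97 had a limma adjusted p of 0.70.

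FGF17, which is close to FGF8 in sequence and receptor use (chromosome 8, 22042398 to 22048809, plus strand), was at 15.0, 8.44 and 4.44 RPM in WT, 30.8, 37.0 and 18.9 RPM in Null and 24.0, 3.56 and 1.72 RPM in Null+EZH2 ESCs. In Het ESCs it was at 13.5, 51.5 and 3.54 RPM, so that the highest of all 12 libraries was library 2 of that group. The Null libraries were all above the WT libraries, but the spread within groups was wide, and the log2 fold change of 1.74 (standard error 0.95) had a limma adjusted p of 0.18. It passed the test when the fit held these 2 groups alone (limma adjusted p = 0.010). Relative to Null+EZH2 ESCs the log2 fold change of FGF17 was 2.36, with a limma adjusted p of 0.22 without the block and 0.048 with it.

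FGF19, an endocrine ligand that acts with the coreceptor KLB (chromosome 11, 69698232 to 69704642, minus strand, the neighbour of FGF4 among the members), had the lowest mean RPM of the members over the 12 libraries. It was at 3.57, 5.65 and 2.78 RPM in WT, 2.96, 1.47 and 3.33 RPM in Het, 4.64, 6.57 and 5.82 RPM in Null and 5.79, 3.19 and 3.04 RPM in Null+EZH2 ESCs. Every group overlapped the WT group. The log2 fold change in Null relative to WT ESCs was 0.54 (limma adjusted p = 0.27).

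FGFR1, the FGF receptor with the most RNA per kb of exon in WT ESCs (chromosome 8, 38411138 to 38468834, minus strand), went the other way. It was at 636, 538 and 584 RPM in WT, 461, 372 and 546 RPM in Het, 307, 254 and 278 RPM in Null and 375, 294 and 322 RPM in Null+EZH2 ESCs. All 6 libraries from lines without intact EZH2 alleles were below all WT libraries, whether or not the transgene was switched on. FGFR1 was at 0.477 of its WT level in Null ESCs (log2 fold change -1.07, standard error 0.16, limma adjusted p = 0.00050) and at 0.562 of it in Null+EZH2 ESCs (log2 fold change -0.83, limma adjusted p = 0.0071). Leaving out any 1 library kept both calls, with limma adjusted p of at most 0.040. Between Null and Null+EZH2 ESCs the log2 fold change was -0.24 (limma adjusted p = 0.50). Per kb of exon, FGFR1 was at a mean of 34.1 RPM in WT ESCs, where SPRY2 was the next member at 7.41 RPM, and at 16.3 RPM in Null ESCs, where SPRY2, FGF8 and SPRY4 were at 16.3, 16.0 and 15.5 RPM per kb.

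Of the feedback genes, SPRY4 (chromosome 5, 142310427 to 142326455, minus strand), a Sprouty inhibitor of RAS-ERK signalling, was at 19.4, 15.6 and 12.7 RPM in WT and at 100, 118 and 86.4 RPM in Null ESCs. Without overlap between the groups, the rise was 6.40-fold (log2 fold change 2.68, standard error 0.57, limma adjusted p = 0.0040). The libraries of Null+EZH2, at 71.4, 46.2 and 15.0 RPM, were all below those of Null, with library 3 inside the WT range. This difference, a log2 fold change of 1.45 for Null relative to Null+EZH2 ESCs, had a limma adjusted p of 0.21 without the block and 0.031 with it. In Het ESCs SPRY4 was at 34.0, 46.3 and 9.34 RPM, and the groups overlapped (log2 fold change 0.64, limma adjusted p = 0.81).

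SPRY2 (chromosome 13, 80335976 to 80340951, minus strand), the Sprouty gene with the most RNA per kb in WT ESCs, was at 19.6, 30.7 and 21.0 RPM in WT and at 48.9, 58.6 and 49.3 RPM in Null ESCs (log2 fold change 1.16, standard error 0.24, limma adjusted p = 0.0038). In Null+EZH2 ESCs it was at 49.9, 42.1 and 33.7 RPM, with library 1 among the Null values. It was still 1.77-fold above WT there, a difference at the threshold (log2 fold change 0.82, limma adjusted p = 0.0497) that was lost without library 1 or 2 of Null+EZH2 (limma adjusted p = 0.17 and 0.14) and without library 1 or 3 of WT (0.17 and 0.13). The Het libraries, at 22.4, 31.7 and 16.1 RPM, covered the WT range.

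SPRY1 (chromosome 4, 123396795 to 123403760, plus strand) was at 9.04, 9.33 and 8.35 RPM in WT, 13.1, 16.6 and 10.1 RPM in Het, 11.7, 11.6 and 8.96 RPM in Null and 12.3, 13.6 and 13.8 RPM in Null+EZH2 ESCs. Unlike SPRY2 and SPRY4, it did not have its highest level in Null ESCs (log2 fold change relative to WT 0.26, limma adjusted p = 0.32). The Null+EZH2 libraries were all above the WT libraries, with a log2 fold change of 0.56 and a limma adjusted p of 0.079 without the block and 0.022 with it.

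DUSP6, the cytoplasmic phosphatase of ERK (chromosome 12, 89347232 to 89353271, minus strand), varied more within groups than between them. It was at 17.7, 21.6 and 8.89 RPM in WT, 30.2, 62.9 and 3.36 RPM in Het, 32.0, 35.3 and 20.6 RPM in Null and 24.1, 21.9 and 6.56 RPM in Null+EZH2 ESCs. The highest and the lowest of all 12 libraries were both Het libraries. The log2 fold change of Null relative to WT ESCs was 0.92 with a standard error of 0.83 (limma adjusted p = 0.43), and relative to Null+EZH2 ESCs 0.91 (limma adjusted p = 0.63). A gene on the other strand, annotated under a clone name, lies with all its 2257 bases within DUSP6 and followed it over the 12 libraries (Pearson r 0.98). Counted without strand, its reads cannot be told from those of DUSP6, so this correlation may come from shared reads.

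Entries of the RefSeq promoter table (GRCh38.p14) were used for 5 of the 10 genes, namely FGF2, DUSP6, SPRY1, SPRY2 and SPRY4. The 250 bases upstream of a start are shown for 3 feedback genes because their RNA behaved differently, with SPRY2 called higher in Null ESCs, SPRY1 not called, and DUSP6 variable among libraries. Capitals mark matches on either strand to the ETS core CGGAAG, the GC box GGGCGG, the CRE core TGACG and the TATA box TATAAA. They lie at chr12:89352502-89352751, minus strand (DUSP6), chr13:80341127-80341376, minus strand (SPRY2) and chr4:123396545-123396794, plus strand (SPRY1), all written 5′ to 3′.
DUSP6: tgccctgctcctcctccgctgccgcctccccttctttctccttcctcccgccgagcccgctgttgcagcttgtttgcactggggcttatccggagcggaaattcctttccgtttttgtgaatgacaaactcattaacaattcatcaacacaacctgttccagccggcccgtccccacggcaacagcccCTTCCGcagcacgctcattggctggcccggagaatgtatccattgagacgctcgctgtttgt
SPRY2: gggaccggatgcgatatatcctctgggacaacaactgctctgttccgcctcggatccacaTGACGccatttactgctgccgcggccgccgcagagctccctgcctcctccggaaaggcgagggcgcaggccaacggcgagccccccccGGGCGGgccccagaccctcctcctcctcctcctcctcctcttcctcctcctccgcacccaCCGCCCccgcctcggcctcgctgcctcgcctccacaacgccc
SPRY1: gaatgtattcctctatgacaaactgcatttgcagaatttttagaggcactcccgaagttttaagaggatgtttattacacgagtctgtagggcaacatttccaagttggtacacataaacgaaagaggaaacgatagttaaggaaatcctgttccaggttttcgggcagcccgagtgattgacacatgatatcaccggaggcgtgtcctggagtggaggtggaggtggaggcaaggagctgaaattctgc
The DUSP6 stretch held 1 ETS core, the letters bound by ERK-responsive ETS factors, SPRY2 held 2 GC boxes and 1 CRE core, and SPRY1 held none of the 4 motifs upstream of this start. A second SPRY1 entry of the table (chr4:123398136-123398435), not printed, held 1 ETS core and 2 GC boxes. Of the other SPRY2 entries, also not printed, that at chr13:80340059-80340358 held none of the 4 motifs. The SPRY2 entry at chr13:80339610-80339909 held 1 GC box and none of the others. What SPRY1 and SPRY2 hold thus depends on the start. Counted over all 35116 promoters of 300 bases, 19.5% held an ETS core, 45.0% a GC box, 24.6% a CRE core and 11.5% a TATA box. The observed over expected CpG ratio was 0.99 in FGF2, 0.77 in DUSP6, 0.73 in SPRY1 (0.89 at its second start), 0.85 in SPRY2 (0.53 and 0.42 at its other starts) and 0.83 in SPRY4 at these starts, against a median of 0.58 over the table. A match describes the letters of a window and not a bound site.

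**Figure D2:**
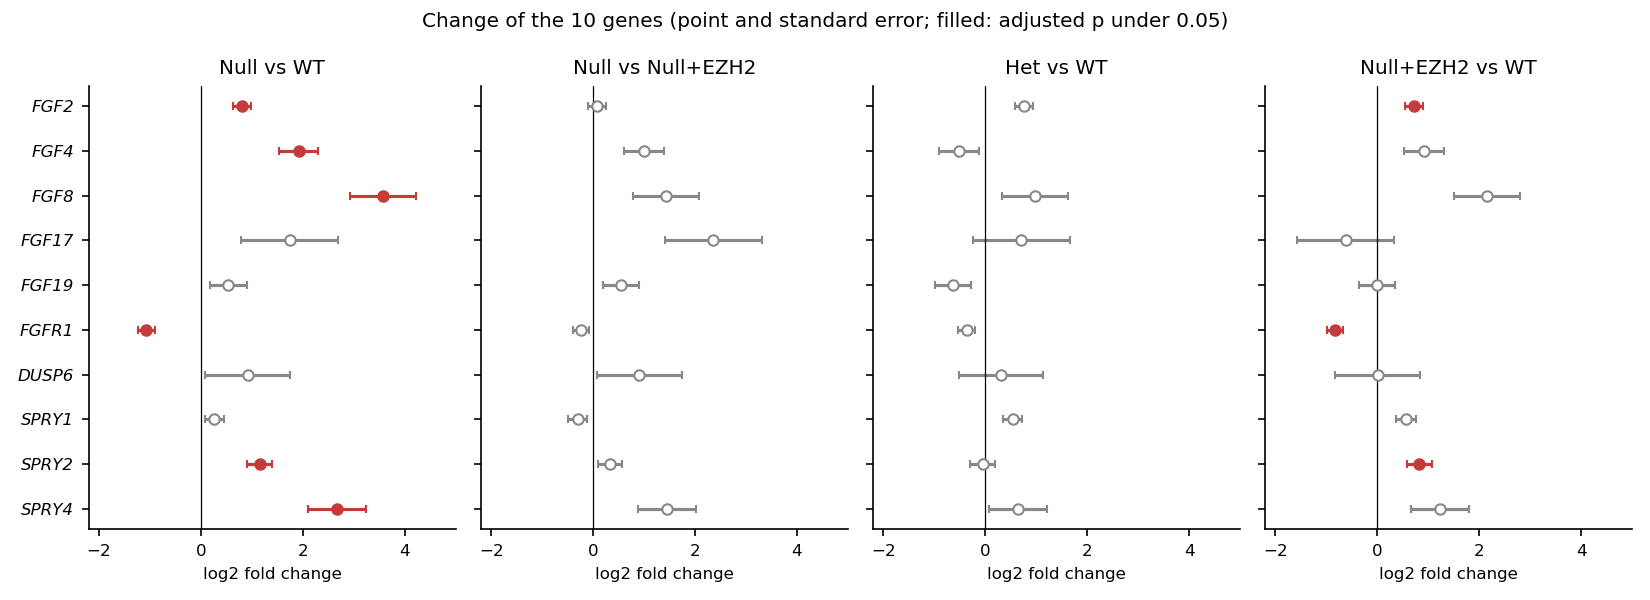
Log2 fold change on the log2(RPM + 0.1) scale (x axis) of the 10 genes (y axis) in 4 comparisons, with bars for the standard error of the limma fit and filled points where the adjusted p is under 0.05. In Null relative to WT ESCs 6 points are filled, with FGF8 at 3.58 and FGFR1 at -1.07, and in Null vs Null+EZH2 and Het vs WT none is filled.

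Comparison of Null with Null+EZH2 ESCs asks which changes went with EZH2 in lines of the same origin. The transgene raised EZH2 above its WT level, yet 0 of the 10 members were called in this comparison by limma without a block, where 3.15% of all genes tested were called. At an unadjusted limma p under 0.05 there were 4 members, FGF4, FGF8, FGF17 and SPRY4, all higher in Null ESCs, and limma voom on recovered reads also called 0. With the library number as a block 2 members were called, FGF17 and SPRY4, against 9.4% over all genes. Of the 10 genes, 8 had a positive fold change, with a median of 0.73 against 0.02 over all genes tested, and 3 of 10 did not overlap between the groups, against 23.2% of all genes tested. FGF8 and SPRY4 were higher in every Null library than in any Null+EZH2 library, and SPRY1 was lower. Without library 3 of Null+EZH2, the library with the lowest FGF4, FGF8, FGF17, DUSP6, SPRY2 and SPRY4 of its group, 0 members had an unadjusted limma p under 0.05.

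In Null+EZH2 relative to WT ESCs FGF2 and SPRY2 were called higher and FGFR1 lower, 3 of 10 members against 10.3% of all genes tested (3.4% as higher and 6.9% as lower). All calls divided into 701 higher and 1422 lower, but into 1030 higher and 877 lower under median-ratio scaling. With the library number as a block 6 members were called, the 3 just named and FGF8, SPRY1 and SPRY4 as higher, against 22.4% of all genes. Without library 3 of Null+EZH2, 6 members were called as well, with FGF4 in place of SPRY1, and without library 1 or 2 of that group FGFR1 alone was called. FGF17, FGF19 and DUSP6 had log2 fold changes of -0.62, -0.00045 and 0.01 in this comparison.

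In Het relative to WT ESCs 0 of the 10 members were called by limma, against 1.15% of all genes tested, 37 as higher and 199 as lower (57 and 125 under median-ratio scaling). FGF2 and SPRY1 were higher and FGFR1 was lower at an unadjusted limma p under 0.05, and limma voom called 0. FGF2 was called with the library number as a block, where 2.88% of all genes were called, under median-ratio scaling, and without library 3 of Het. Libraries 2 and 3 of Het lay far apart, with FGF17 at 51.5 and 3.54 RPM and DUSP6 at 62.9 and 3.36 RPM, and 8 endoderm markers summed to 460 RPM in library 2 and 17.2 RPM in library 3. Of these sums CER1, named after its values were seen, made up 358 and 2.51 RPM. Each other gene of that list was also higher in library 2 than in library 3.

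The spread within groups followed the library number. FGF17, DUSP6 and SPRY4 were lowest in library 3 in all 4 genotypes, FGF2, FGF8 and SPRY1 in 3 of 4 genotypes, and FGFR1 was lowest in library 2 in all 4. FGF4, FGF19 and SPRY2 were lowest in library 3 in only 2 of 4 genotypes. In the others FGF4 and FGF19 were lowest in library 1 or 2, and SPRY2 in library 1. After subtraction of the genotype mean, FGF8 and SPRY4 had a Pearson r of 0.97 over the 12 libraries, DUSP6 and SPRY4 of 0.93, FGF8 and DUSP6 of 0.92, and FGF17 and SPRY4 of 0.91, whereas FGFR1 and SPRY1 had -0.69 and FGF19 and SPRY4 -0.02. These values describe 12 libraries that share a normalization within each library and, by number, possibly a preparation. When library 3 was left out of every genotype, an alternative chosen after the data were seen, the same 6 members were called in Null relative to WT ESCs (5 higher, 1 lower), 0 were called relative to Null+EZH2, 3 in Het relative to WT (FGF2, SPRY1 and SPRY4, all higher) and 7 in Null+EZH2 relative to WT ESCs.

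**Figure D3:**
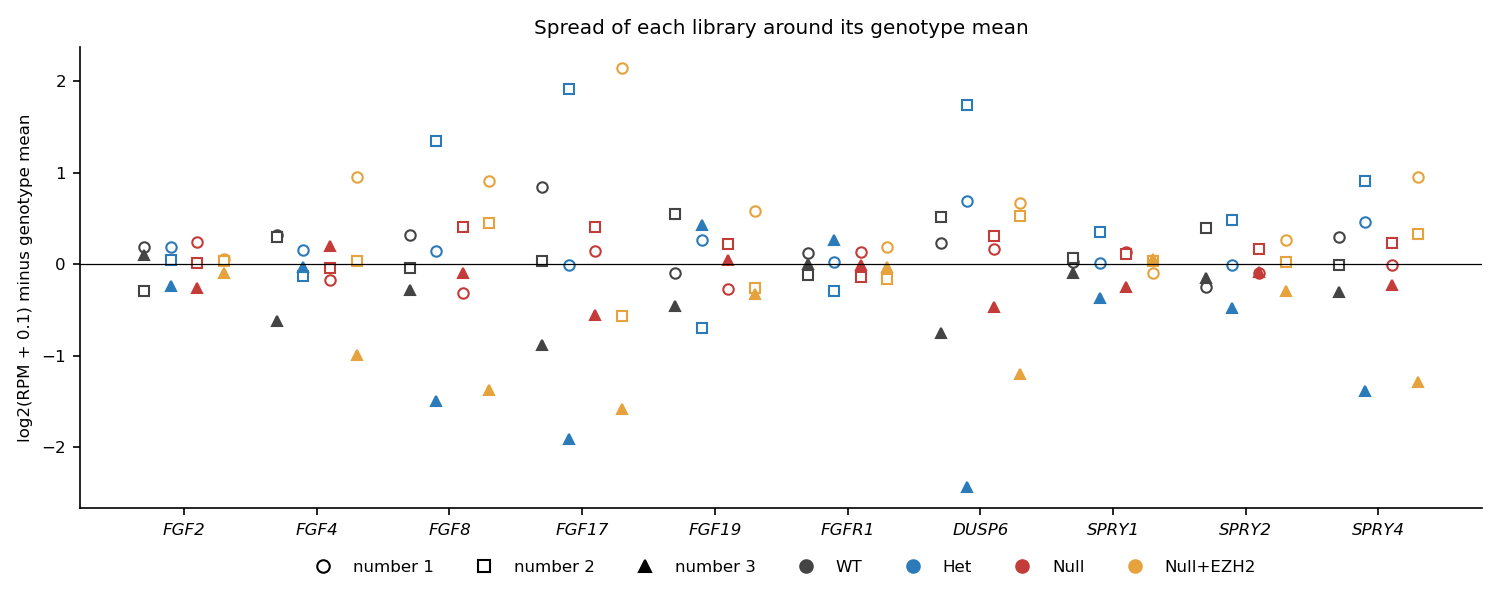
Deviation of each library from the mean of its genotype on the log2(RPM + 0.1) scale (y axis) for the 10 genes (x axis), coloured by genotype and shaped by library number, with number 3 filled. The triangles of FGF17, DUSP6 and SPRY4 lie below 0 in all 4 genotypes, down to -2.44 for DUSP6 in Het, whereas those of FGF2 and FGFR1 lie close to 0.

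Several endoderm, mesoderm and mesenchymal markers were also called higher in Null than in WT ESCs, whereas more neural markers were called lower than higher. Over all genes tested, 12.6% were called higher and 18.8% lower in this comparison, and 45.3% in either direction with the block. The summed level of 8 primitive streak and mesoderm markers was 57.1 to 94.1 RPM in WT, 57.8 to 136 RPM in Het, 200 to 275 RPM in Null and 77.6 to 214 RPM in Null+EZH2 libraries. Of these 8, 2 were called higher in Null than in WT ESCs, and 5 in the fit with a block for the library number. The sum of 8 endoderm markers was 24.8 to 51.2 RPM in WT, 17.2 to 460 RPM in Het, 170 to 474 RPM in Null and 27.1 to 56.7 RPM in Null+EZH2 libraries, and 6 of the 8 were called higher in Null than in WT ESCs. CER1 alone was at 16.4, 15.3 and 3.06 RPM in WT and at 116, 308 and 84.8 RPM in Null libraries. The sum of 8 mesenchymal and fibroblast markers ran from 301 to 374 RPM in WT and from 296 to 556 RPM in Null libraries, with 4 of 7 tested called higher and 1 lower, and that of 8 neural markers from 313 to 472 RPM and from 373 to 410 RPM, with 1 of 7 tested called higher and 3 lower. The largest part of the neural sum was NES, at means of 214 RPM in WT and 333 RPM in Null ESCs. SOX1 was at means of 7.41 and 0.0162 RPM and PAX6 at 6.65 and 1.06 RPM in these groups. NES, SOX1 and PAX6 were named after their values were seen. The sum of 8 ESC markers was 3141 to 4093 RPM in WT and 3890 to 4211 RPM in Null libraries, with 4 called higher and 2 lower. Every gene of these marker lists had reads in WT and in Null ESCs. The part of these cells in the changes of FGF4, FGF8, FGF17 and the feedback genes was not tested.

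ChIP-seq values were read in a window of 5 kb centred on an annotated start, taking for each gene the window with the most H3K27me3 in WT ESCs. Each genotype has 1 column per mark, so that there is no replicate error and no test between genotypes, and the intervals given are 95% counting intervals that cover counting error only. H3K27me3 was highest at 4 of the 5 ligands, whereas FGF2 had a value near those of the Sprouty genes. FGF8 was at 25.5 RPM in WT ESCs, FGF4 at 18.5 RPM, FGF17 at 17.0 RPM, FGF19 at 15.9 RPM and DUSP6 at 9.05 RPM, and these 5 met the cut of the study's methods for H3K27me3 promoters. Applied here to the window with the most H3K27me3 of each name, that cut took in 6235 of 35683 gene names, which is not the study's own set. SPRY4 was at 3.75 RPM, FGF2 at 3.68 RPM, SPRY2 at 2.35 RPM, SPRY1 at 1.80 RPM and FGFR1 at 1.30 RPM, where input chromatin was at 0.860 to 1.57 RPM over the 10 windows. EZH2 itself, measured in WT ESCs alone, was at 2.44 RPM at FGF8, 1.63 RPM at FGF4 and 1.46 RPM at FGF19, at or above the 95.0th percentile of all gene names, but at 0.42 RPM at FGF17. EZH2 values at SPRY2 (1.30 RPM, 94.1th percentile), DUSP6 (1.29 RPM, 94.0th percentile) and SPRY1 (1.12 RPM, 92.4th percentile) were nearly as high. In WT ESCs, however, input was at 1.54 RPM at SPRY2, 1.26 RPM at SPRY1 and 1.30 RPM at FGF17, above EZH2 at each. At DUSP6, FGF8, FGF4 and FGF19 input was at 0.860, 1.13, 1.13 and 0.944 RPM, below EZH2. The values at SPRY2 and SPRY1 thus do not show EZH2 above input. At FGF17 high H3K27me3 stood beside EZH2 below input.

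In Null ESCs H3K27me3 was at 0.63 RPM at FGF8, 0.54 RPM at FGF4, 0.32 RPM at FGF19, 1.24 RPM at FGF17 and 1.45 RPM at DUSP6. The log2 change relative to WT ESCs was -5.12 at FGF8 (interval -5.72 to -4.52), -5.24 at FGF19 (-5.98 to -4.50) and -2.56 at DUSP6 (-3.04 to -2.09). At SPRY2 it was 0.03 (-0.50 to 0.56), at FGFR1 0.41 (-0.26 to 1.07) and at SPRY4 -0.62 (-1.09 to -0.15). In all, 7 of the 10 genes were lower by at least 1 on the log2 scale, against 48.0% of all gene names, with a median of -2.16 over the members and -0.94 over all. The members lower in H3K27me3 and those whose RNA rose were thus partly different genes. Of the genes that met the cut, FGF4 and FGF8 rose in RNA, and FGF17, FGF19 and DUSP6 had no called change. FGF2, SPRY1, SPRY2, SPRY4 and FGFR1 had little H3K27me3 in WT ESCs and did not meet the cut. Among these, FGF2 (-1.76, interval -2.36 to -1.17) and SPRY1 (-1.41, interval -2.17 to -0.66) were lower by at least 1, and the others were not. FGF2 and SPRY4 had similar values in WT ESCs. The SPRY1 values, 1.80 RPM in WT and 0.61 RPM in Null ESCs, stood beside input at 1.26 and 1.60 RPM. In RNA, FGF2, SPRY2 and SPRY4 rose, FGFR1 fell and SPRY1 had no called change. Over all windows of SPRY2, H3K27me3 ran from 0.541 to 2.35 RPM in WT and from 2.41 to 3.00 RPM in Null ESCs.

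In Null+EZH2 ESCs H3K27me3 was at 27.5 RPM at FGF17, 12.8 RPM at FGF4, 10.9 RPM at FGF19, 10.3 RPM at FGF8 and 5.37 RPM at DUSP6. These 5 were higher than in Null ESCs by at least 1 on the log2 scale, against 37.3% of all gene names, and FGF8 stayed 1.29 lower than in WT ESCs on the log2 scale while FGF17 was 0.69 higher. FGF2 was at 1.22 RPM, close to its 1.01 RPM in Null ESCs. SPRY4, at 2.40 RPM in Null ESCs, was lower with the transgene switched on, at 1.25 RPM (log2 change -0.89, interval -1.43 to -0.35). In Het relative to WT ESCs 3 of the 10 genes, FGF2, DUSP6 and SPRY4, were lower by at least 1 on the log2 scale, against 4.49% of all gene names, while FGF4, FGF8, FGF17 and FGF19 differed by at most 0.38 in either direction.

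**Figure D4:**
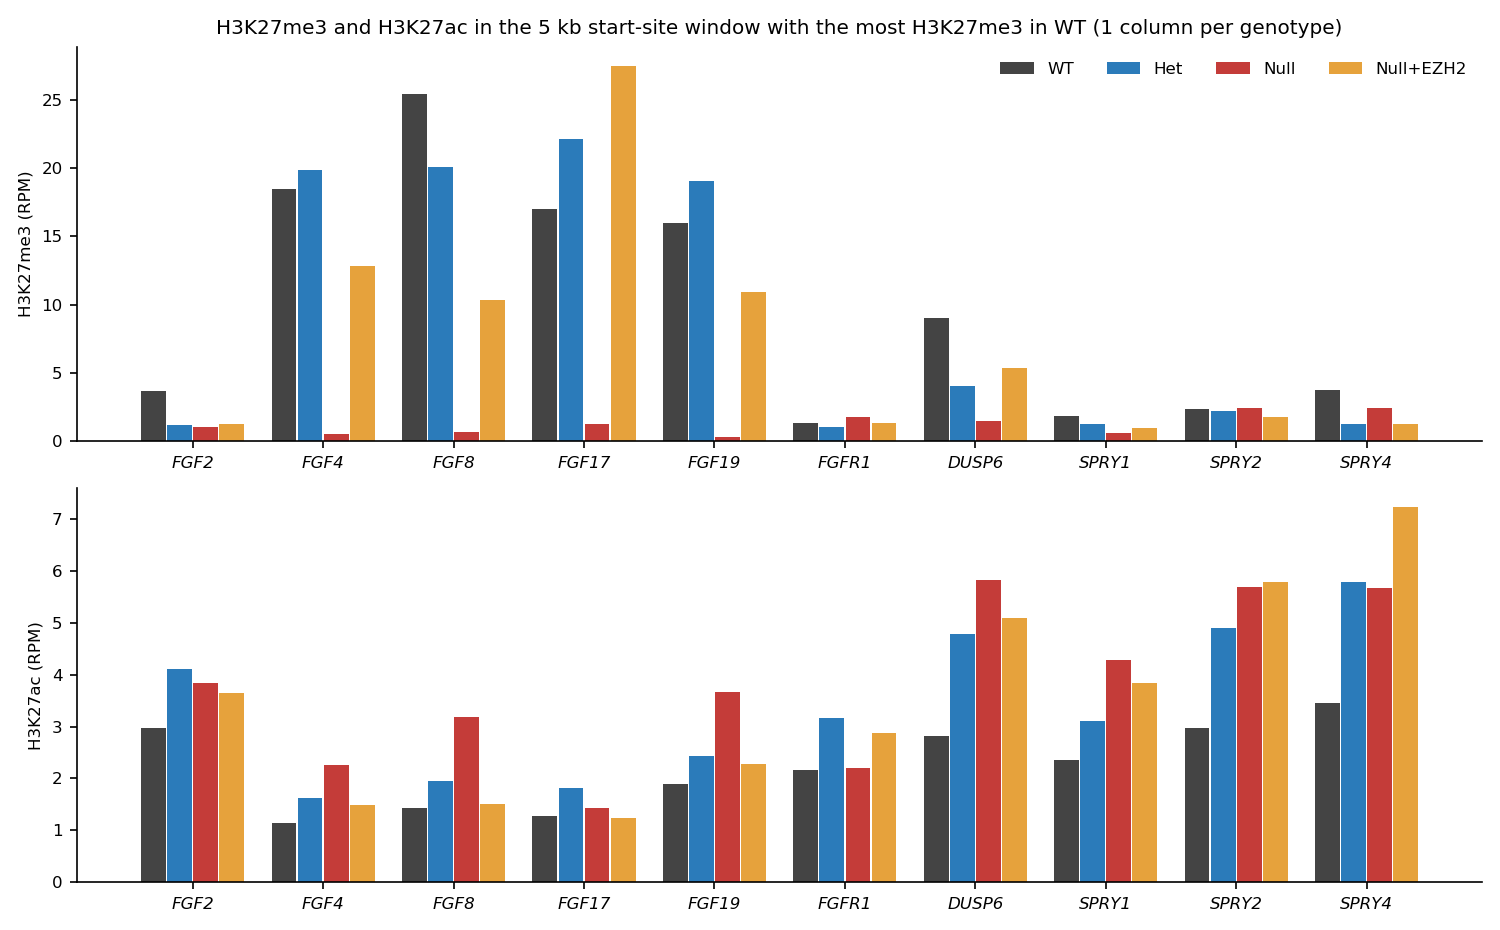
H3K27me3 (upper panel) and H3K27ac (lower panel) in RPM (y axes, linear, from 0) in the 5 kb window of each of the 10 genes (x axis), with 1 bar per genotype and no error bars because each genotype has 1 column. H3K27me3 is above 9 RPM in WT ESCs at FGF4, FGF8, FGF17, FGF19 and DUSP6 and under 1.5 RPM at these genes in Null ESCs.

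In Null relative to WT ESCs the active marks moved less than H3K27me3 at the 5 genes that met the cut, but not at every member. At SPRY2 the log2 change was 0.92 for H3K27ac and 0.03 for H3K27me3, and at SPRY4 0.70 and -0.62. H3K27ac values in Null ESCs were above those in WT ESCs at every member, with log2 changes from 0.03 at FGFR1 to 1.10 at FGF8 (interval 0.52 to 1.68) and a median of 0.87 against 0.31 over all gene names. The interval took in 0 at FGFR1 (-0.55 to 0.60), FGF17 (0.14, interval -0.57 to 0.85) and FGF2 (0.36, interval -0.11 to 0.83). Of the 10 genes, 2, FGF8 and DUSP6, were higher by at least 1, against 9.18% of all gene names. DUSP6 had 2.81 RPM of H3K27ac in WT, 4.78 RPM in Het, 5.83 RPM in Null and 5.08 RPM in Null+EZH2 ESCs, and SPRY4 had 3.46, 5.79, 5.66 and 7.22 RPM. At FGF8 H3K27ac was 1.43 RPM in WT, 3.18 RPM in Null and 1.51 RPM in Null+EZH2 ESCs, whereas at SPRY2 and SPRY4 it was not lower in Null+EZH2 than in Null ESCs. H3K4me3, a mark of active starts, was higher by at least 1 at FGF2 alone among the members, at 7.62 RPM in WT and 16.6 RPM in Null ESCs (log2 change 1.11, interval 0.70 to 1.53), against 2.47% of all gene names. It was also at 17.5 RPM in Het and 14.8 RPM in Null+EZH2 ESCs, so that WT had the lowest value, as for the mean RNA level of FGF2. The WT column of H3K4me3 had about 3430000 reads per library, the fewest of all columns. H3K4me1, a mark of enhancers and start flanks, had log2 changes from -0.32 to 0.76 over the members in Null relative to WT ESCs.

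The other genes of the pathway were taken from lists compiled by role. Their calls should be read against those over all genes tested. In Null relative to WT ESCs these were 31.4% (12.6% higher and 18.8% lower), or 45.3% with the block. Relative to Null+EZH2 ESCs they were 3.15%, or 9.4% with the block. Of 17 other FGF ligands, 12 passed the minimum level, and in Null relative to WT ESCs 5 rose and 3 fell, with a median log2 fold change of 0.28. FGF16 (log2 fold change 4.39, limma adjusted p = 0.00080), FGF1 (1.97), FGF18 (1.82), FGF5 (1.37) and the intracellular FGF13 (1.22) rose, and FGF3 (-4.34), FGF23 (-1.50) and the intracellular FGF11 (-1.32) fell. FGF18 was also higher in Null than in Null+EZH2 ESCs (log2 fold change 1.42, limma adjusted p = 0.039). FGF3 was at a mean of 3.20 RPM in WT and at 0.0345 RPM or less in the 3 other groups. Of 5 tested receptors and coreceptors, FGFRL1, a receptor that lacks the kinase domain, rose (log2 fold change 0.95) and FGFR2 fell (-0.78) in Null relative to WT ESCs. FGFR4 had a log2 fold change of 0.02. Leaving out 1 library ended the calls of FGF11 (library 2 of WT), FGF1 (library 2 of Null or of WT), FGF5 and FGF23 (library 1 or 2 of Null, or 2 or 3 of WT) and FGFRL1 (library 2 of Null, or 2 or 3 of WT), with limma adjusted p of at most 0.15. The call of FGF18 relative to Null+EZH2 ESCs was lost without any library but the first of Null (limma adjusted p of at most 0.18). In the fit with a block, 2 of the 12 ligands rose relative to Null+EZH2 ESCs, and 1 receptor or coreceptor rose and 2 fell relative to WT ESCs.

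Among 14 FGF-binding and heparan sulfate genes, FGFBP2 (1.43), SULF2, an extracellular sulfatase of heparan sulfate (1.09), and HS6ST1, a heparan sulfate sulfotransferase (0.50), rose, and FGFBP3 fell from a mean of 145 RPM in WT to 7.09 RPM in Null ESCs (log2 fold change -4.31, limma adjusted p = 5.1e-06). Over all genes tested, 31.4% were called in this comparison. SULF2 and FGFBP3 were also called relative to Null+EZH2 ESCs, with log2 fold changes of 0.87 and -1.71, calls that were lost without library 2 of Null and, for SULF2, also without library 3 of Null or library 2 or 3 of Null+EZH2 (limma adjusted p of at most 0.19). Those of FGFBP2 and HS6ST1 were lost without library 3 of Null or 2 of WT and, for HS6ST1, also without library 1 or 2 of Null or 3 of WT (limma adjusted p of at most 0.16). With a block, 3 of the 14 rose and 1 fell relative to Null+EZH2 ESCs. Of 24 genes of the RAS-ERK cascade itself, 3 rose (KSR1, a scaffold of the cascade, 1.04, and the kinases ARAF, 0.91, and RPS6KA3, 0.69) and 3 fell (among them PLCG1, -0.66, and BRAF, -0.50) in Null relative to WT ESCs. These calls stand against 31.4% of all genes tested in either direction, and the median of -0.15 was close to the -0.13 of all genes tested. BRAF lost the call without library 2 or 3 of Null or 1 or 2 of WT, and RPS6KA3 without any library but the second of WT (limma adjusted p of at most 0.13), and BRAF also under median-ratio scaling and by limma voom. With a block, 4 of the 24 rose and 9 fell relative to WT ESCs. Of the 24, 0 were called relative to Null+EZH2 ESCs by limma, with the block or without it.

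Of 23 other ERK feedback and target genes, 12 rose and 1 fell in Null relative to WT ESCs, against 31.4% of all genes tested in either direction, with a median log2 fold change of 0.88 against -0.13. The list was compiled with earlier results of these data known. The 8 with the smallest adjusted p, given with their log2 fold changes, were IER3 (2.91), FOSL1 (2.58), PHLDA1 (2.29, limma adjusted p = 6.0e-06), ETV4, an ETS factor downstream of FGF (2.27), DUSP5, a nuclear phosphatase of ERK (2.22), DUSP9 (1.96), MYC (1.77) and DUSP4 (1.76). EGR2, named here after its values were seen as the 1 gene of the list that fell, had a log2 fold change of -2.33 and was at a mean of 6.92 RPM in WT and 1.36 RPM in Null ESCs. The immediate early gene FOS, also named after its values were seen, had a log2 fold change of 0.57 with a standard error of 0.92, and its WT libraries had a mean of 86.2 ± 72.9 RPM (SD, n = 3). Relative to Null+EZH2 ESCs 3 of the 23 rose, DUSP4 (2.00, limma adjusted p = 0.010), CCND1 (0.81) and PHLDA1 (0.71), against 3.15% of all genes tested in either direction. DUSP4 lost the call without library 2 of Null, CCND1 without library 2 or 3 of either group, and PHLDA1 without any 1 of the 6 libraries (limma adjusted p of at most 0.13). With the library number as a block 8 rose, against 9.4% of all genes in either direction. The median was 0.70 against 0.02 over all genes tested. In Null+EZH2 relative to WT ESCs 5 of the 23 were higher and 1 was lower, against 10.3% of all genes tested in either direction.

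**Figure D5:**
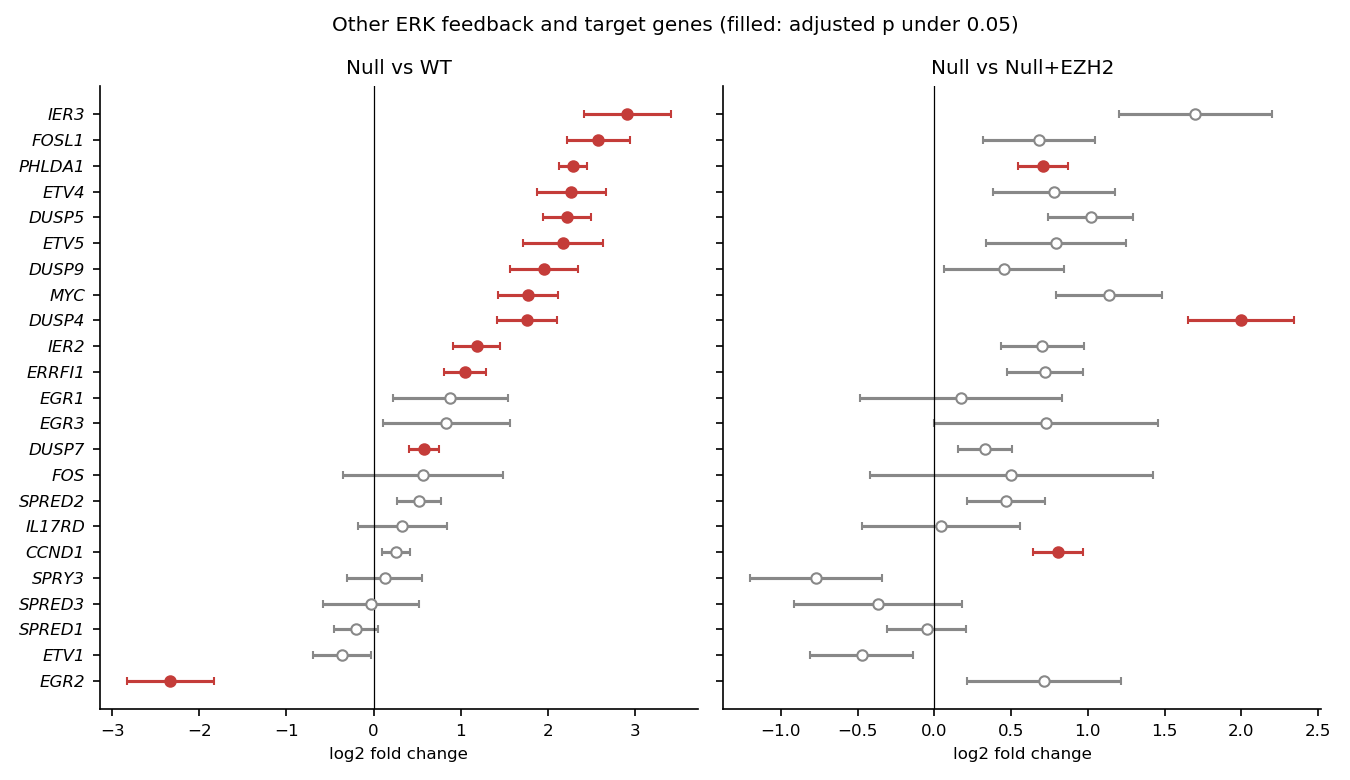
Log2 fold change on the log2(RPM + 0.1) scale (x axes, each with a range of its own) of 23 other ERK feedback and target genes (y axis, in the order of the left panel) in Null relative to WT ESCs (left) and to Null+EZH2 ESCs (right), with bars for the standard error and filled points where the limma adjusted p is under 0.05. On the left 13 points are filled, from EGR2 at -2.33 to IER3 at 2.91, and on the right 3 are filled (DUSP4, CCND1 and PHLDA1).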

How the data were processed

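RNA-seq was made from 12 libraries, 3 for each of 4 genotypes, and ChIP-seq from the same genotypes. The authors trimmed reads with Trim Galore 0.4.0, aligned RNA-seq with TopHat2 2.0.12 and ChIP-seq with Bowtie2 2.2.5 to GRCh38, counted reads per gene without strand or per window 2.5 kb either side of a start, and deposited log2 RPM. Low RNA values were whole multiples of 1 read (100% under 1000 reads, within 0.01 of a read), and values of the ChIP-seq columns step as means of 2 libraries on the log2 scale, with EZH2 as 1 library. The study's methods give another number of ChIP-seq replicates.

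Values were returned to RPM, genes without a read were set to 0, and log2(RPM + 0.1), on which fold changes of low genes come out too small, was tested over all 12 libraries for 20608 genes whose mean reached 0.1 RPM, with limma 3.58.1 (lmFit, eBayes with trend) in R 4.3.3 and Benjamini-Hochberg adjustment. Genes with an adjusted p under 0.05 were called, and "rose" or "fell" is used of these. The authors used DESeq2 on raw counts, which are not used here. Deviations of same-numbered libraries were positively correlated between the groups compared (over genes, from 0.107 to 0.560), in places only weakly. The numbers were therefore taken to pair the libraries, although the labels say no more than the number. Libraries of unlike number were not compared, so the pairing is an assumption of the fit with the block. The study's methods state no block, so the fit without one is given first, and the fit with the block is given beside it where a call changed. On simulated data for Null relative to WT ESCs with 20608 genes and 200 changed, the fit without a block recovered 82% of 2-fold and 93% of 4-fold changes, with 6 false calls. The simulated counts had the same spread for every gene and no effect of the library number. Members were more variable in places, such as SPRY4 in Het ESCs with 29.9 ± 18.8 RPM (SD, n = 3). These rates therefore describe the simulated setting and do not carry over to such genes.

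The members and gene lists were chosen with earlier results of these data known. Named in the text are the 10 members, up to 8 genes per pathway list with an adjusted p under 0.05 in Null relative to WT or Null+EZH2 ESCs, by smallest adjusted p, and EZH2; others are marked as named after their values were seen or are check genes. Where a name stood on more than 1 row, that with the highest mean was used. Levels per kb used exon lengths of GENCODE release 44. Alternatives were other pseudocounts (0.5 and 1 RPM), filters, median-ratio scaling, limma voom, the 2 groups alone, the block, and leaving out libraries. 1 gene that the rule names is not reported here.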

Additional observations from a re-analysis of the deposited data

How the results depend on the processing

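The 6 calls among the members in Null relative to WT ESCs were made in every alternative run, including each left-out library, with 1 more (FGF17) when these 2 groups were fitted alone. Relative to Null+EZH2 ESCs, 2 members were called with the library number as a replicate block, and 0 under the other alternatives. All genes called in that comparison, 650 in all, numbered 1937 with the block, 288 with a mean of at least 1 RPM, 300 by limma voom and 137 to 781 when 1 library was left out (314 without library 3 of every genotype). For Het relative to WT ESCs, members called numbered 1 with the block, 1 under median-ratio scaling, 0 to 1 with 1 library left out and 3 without library 3 of every genotype, and all genes called, 236, numbered 594 with the block, 10 with the 2 groups alone, 138 by limma voom, 65 to 602 with 1 library left out and 1234 without library 3 of every genotype. For Null+EZH2 relative to WT ESCs, members called, 3, numbered 6 with the block, 5 under median-ratio scaling, 5 with the 2 groups alone, 1 to 6 with 1 library left out and 7 without library 3 of every genotype, and all genes called, 2123, numbered 4611 with the block, 891 to 2059 with 1 library left out and 4853 without library 3 of every genotype. For Null relative to WT ESCs all genes called, 6463, numbered 4139 to 5501 with 1 library left out. The block changed no call of a member other than those given in the report. In calls of members, 11 fold changes were no longer past the threshold under an alternative and 23 newly were.

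Fold changes near 0 turned sign. With 1 library left out, FGF2 in Null relative to Null+EZH2 ESCs ran from -0.041 to 0.21, and in Het relative to WT ESCs FGF17 ran from -0.25 to 1.67, DUSP6 from -0.56 to 1.53 and SPRY2 from -0.29 to 0.19. In Null+EZH2 relative to WT ESCs FGF17 ran from -1.69 to 0.17, FGF19 from -0.29 to 0.27 and DUSP6 from -0.37 to 0.61. Median-ratio scaling gave 0.052 for SPRY2 in Het and 0.14 for FGF19 in Null+EZH2 ESCs, limma voom gave 0.079 for the latter, and SPRY2 in Het was 0.12 without library 3 of every genotype. The cause was not tested. Median changes of the 4 marks over the members kept their direction under other windows, pseudocounts, input subtraction and centring, with H3K27me3 in Null relative to WT ESCs from -2.35 to -1.62. Depth also limits the ChIP-seq values, where the FGF19 window in Null ESCs held 4.47 H3K27me3 reads per library.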

Other observations

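Over the 12 libraries and 15489 genes whose mean reached 1 RPM, the genes whose level followed FGF8 most closely were ACHE, which codes for acetylcholinesterase, RP11-104F15.9 and PMEPA1, a known target of TGF-beta signalling, each with a Pearson r of 0.99. RP11-104F15.9 was at means of 3.85 RPM in WT, 11.1 RPM in Het, 83.5 RPM in Null and 26.99 RPM in Null+EZH2 ESCs. Those closest to SPRY4 were FLNC and ZYX, which code for proteins of the actin cytoskeleton, and GAS2L1, each with a Pearson r of 0.98. ZYX was at means of 68.8 RPM in WT, 93.1 RPM in Het, 222 RPM in Null and 140 RPM in Null+EZH2 ESCs.

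FGF2 was followed most closely by COBL (0.95), FOXD3-AS1 (0.95) and TERF1 (0.94), which codes for a telomere-binding protein. TERF1 was at means of 99.4 RPM in WT ESCs and 201, 177 and 185 RPM in Het, Null and Null+EZH2 ESCs, with the lowest level in WT as for FGF2. DUSP6 was followed by ATP6V1C1 (0.97), CHUK (0.96) and, most closely, the gene on the other strand that lies within it (0.98). The reads of that gene cannot be told from those of DUSP6. These correlations were searched over all genes and describe the 12 libraries, which share genotypes and library numbers.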
